A study of Mus musculus with 6 samples.

Results

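The 10 genes described here encode transcription factors that act in late meiosis and in spermatids, the haploid cells that become sperm: Crem, Rfx1, Rfx2, Rfx3, Rfx4, Sox30, Sox5, Mybl1, Tbpl1 and Taf7l. They were taken by symbol from a count table of 54100 mouse genes, in which each of the 10 had a single row, and all 10 passed the filter on low counts that left 17038 genes for testing. The table held bulk RNA-seq libraries of testis cryosections, 3 from mice with an H3t deletion and 3 from wild-type (WT) mice. H3t encodes a testis-specific form of histone H3. The sources used here do not give age, strain, the way the deletion was made or whether each library came from its own mouse. The p-values therefore reflect the spread among these 6 libraries, part of which may be technical. The study concerned Leydig cells in testes in which spermatogenesis is disrupted, and the comparison of the deletion with WT asks here how these germ cell factors and their partners differed.

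Germ cells pass through mitosis as spermatogonia, through meiosis as spermatocytes and through differentiation as spermatids, and separate regulators act along this path. MYBL1 (A-MYB) switches on genes of pachytene spermatocytes, including those of the piRNA pathway. RFX proteins bind a DNA element called the X-box and are best known as regulators of cilium genes, and RFX2 is needed for spermatids to build their flagella. CREM and SOX30 drive genes of round spermatids, and TBPL1 and TAF7L are testis-rich relatives of the general transcription factors TBP and TAF7.

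Total counts were 8315960 to 8988520 in the deletion libraries and 8037826 to 10702930 in the WT libraries. H3f4, the symbol under which the table lists H3t, had 0 counts in each of the 3 deletion libraries and 390, 571 and 356 counts in the WT libraries. Levels below are TMM-scaled CPM, the counts of a gene relative to the library's scaled total. The fitted changes of all genes shift together with the scaling: the median over all tested genes was -0.19 with TMM, -2.20 when libraries were set to an equal Sertoli marker level and 2.95 at an equal early meiotic prophase marker level. With TMM the summed level of 12 pachytene and later spermatocyte markers was 93.6 to 122 CPM in the deletion, against 10730 to 10930 CPM in WT, and that of 12 round spermatid markers was 5.82 to 11.3 CPM in the deletion, against 2887 to 3230 CPM in WT. The sum of 16 early meiotic prophase markers was 479 to 543 CPM in the deletion, against 4181 to 4816 CPM in WT, whereas 9 markers of differentiating spermatogonia summed to 316 to 363 CPM in the deletion, against 433 to 482 CPM in WT. For 20 Sertoli cell markers the sum was 5397 to 5566 CPM in the deletion, against 1264 to 1425 CPM in WT, and for 13 Leydig cell markers 7264 to 7929 CPM in the deletion, against 847 to 934 CPM in WT. These shifts in markers ran alongside every result below, and their part in it was not tested. In bulk tissue, fewer cells of a type and less RNA per cell cannot be told apart.

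To show the DNA next to the genes that moved most and least, the sequence upstream of the RefSeq gene start is given for Rfx2, for an internal start of Rfx4 and for Taf7l, on GRCm38.p6, read 5′ to 3′ on the gene's strand. Capitals mark matches to AACNGCC on either strand, a form of the binding sequence of MYB proteins. Of the Rfx4 windows, the one printed is that with a match, and the window of its first start, not printed, had none. The RefSeq upstream windows analysed here covered 8 of the 10 genes, all but Crem and Mybl1. They were not the full RefSeq set, so the absence of Crem and Mybl1 does not show that RefSeq lacks a window for them.
Rfx2, chr17:56831009-56831258, minus strand: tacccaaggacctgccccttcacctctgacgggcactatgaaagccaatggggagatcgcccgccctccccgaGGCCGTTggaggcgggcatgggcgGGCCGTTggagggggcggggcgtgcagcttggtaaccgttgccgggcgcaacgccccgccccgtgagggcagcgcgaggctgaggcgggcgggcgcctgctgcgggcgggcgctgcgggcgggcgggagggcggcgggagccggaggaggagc
Rfx4, chr10:84837898-84838147, plus strand: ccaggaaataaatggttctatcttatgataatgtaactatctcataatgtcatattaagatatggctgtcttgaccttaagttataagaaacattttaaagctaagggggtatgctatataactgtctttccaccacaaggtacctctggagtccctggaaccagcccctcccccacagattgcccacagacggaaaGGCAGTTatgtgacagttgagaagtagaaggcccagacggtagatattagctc
Taf7l, chrX:134476491-134476740, minus strand: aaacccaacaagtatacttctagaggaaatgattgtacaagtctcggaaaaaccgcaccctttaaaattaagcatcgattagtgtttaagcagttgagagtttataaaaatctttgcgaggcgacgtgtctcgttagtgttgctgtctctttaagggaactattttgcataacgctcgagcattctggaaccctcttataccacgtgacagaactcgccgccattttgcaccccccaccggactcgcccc

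The Rfx2 window is 76% G or C and held 2 MYB matches, which began 177 and 153 bases before the start. The Rfx4 window, which lies in an intron of the longer annotated Rfx4 transcripts, held 1 match, 53 bases before the start. No match was found in the Taf7l window, in the window of the first Rfx4 start or upstream of the other 5 genes with a window. The Sox5 and Tbpl1 windows also lie wholly inside the annotated gene and outside its exons, so their starts are internal ones. Of the 32851 RefSeq upstream windows of 250 bases analysed here, none of them on chr18, 9.83% held the sequence. The X-box, searched as both of its conserved parts at fixed spacing, was in 1.8% of all windows and the full cAMP response element TGACGTCA, which CREM binds, in 1.55%, and neither was in the window of any of the 8 genes. The shorter TGACG, part of the full element, was found upstream of Rfx1, with 3 matches, and of Rfx2, with 1 match, and was in 17.8% of all windows. GTTGCC, a part of the X-box, was in 10.4% of all windows. It had 1 match upstream of Rfx2, 116 bases before the start, and 1 upstream of the internal Sox5 start, 16 bases before it. In the Rfx2 window GCAAC, of the form of the other X-box part, follows GTTGCC at a longer spacing than the one searched. Such matches describe letters, not binding.

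Of the 10 genes, 9 were lower in the deletion, 0 were higher, and Taf7l was not called in either direction. Calls come from the quasi-likelihood test of edgeR, Benjamini-Hochberg adjusted over all tested genes, at a false discovery rate of 0.05. Over all 17038 genes, 46.1% were called lower and 38.4% higher, 84.5% in all. The median log2 fold change, deletion minus WT, was -4.04 over the 10 genes and -0.19 over all tested genes. Together the 10 genes summed to 175 to 196 CPM in the deletion, against 2041 to 2150 CPM in WT. The groups did not overlap for any of the 10 genes, with 9 below WT in the deletion and Taf7l above, where 85.9% of all genes did not overlap, 46.7% with the deletion below and 39.2% with it above.

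**Figure D1:**
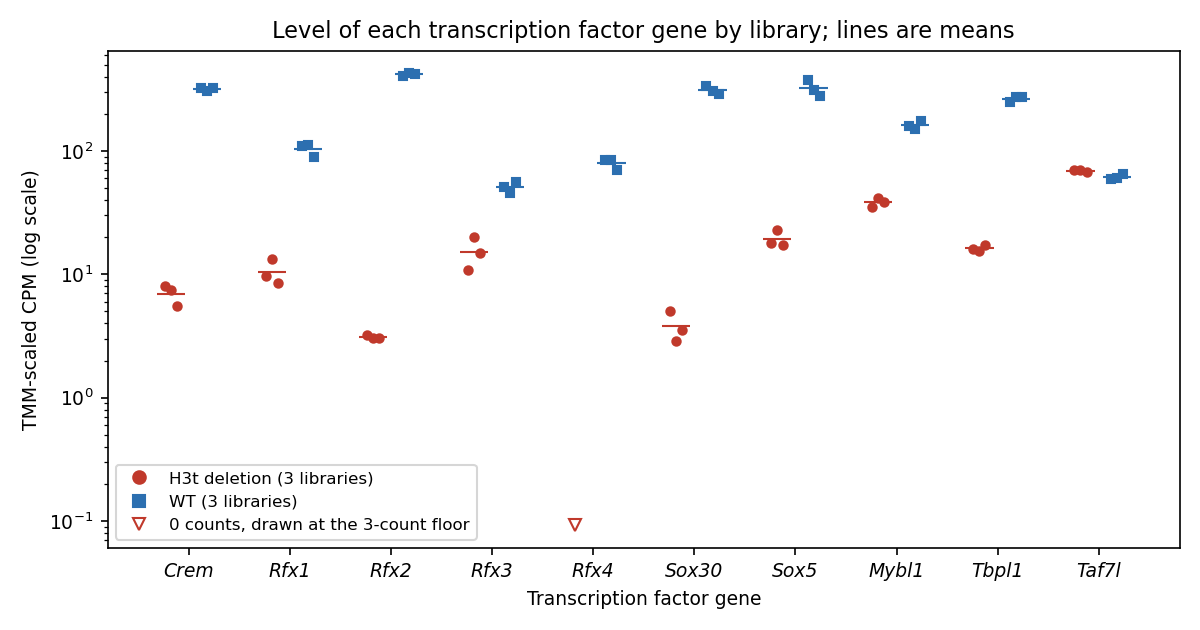
TMM-scaled CPM on a log scale of the 10 transcription factor genes in 3 H3t deletion libraries (circles, left) and 3 WT libraries (squares, right), with lines at the means; an open triangle marks a gene with 0 counts, drawn at the floor of 3 counts over the group. Rfx2 sits at about 3.12 CPM in the deletion, against 418 CPM in WT, while Taf7l sits at 69 CPM in the deletion, against 61.4 CPM in WT.

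Mybl1, the regulator of pachytene genes, fell less than Rfx2 or Crem. Mybl1 (ENSMUSG00000025912, chr1:9667415-9700209, minus strand) had 34.9, 41.6 and 38.4 CPM in the 3 deletion libraries (replicates 1 to 3, the order kept below), against 158, 149 and 174 CPM in the WT libraries. All deletion libraries lay below all WT libraries. It was 4.2-fold lower (log2 fold change -2.07, SE 0.10, adjusted p = 3.47e-11, edgeR), but at an equal early meiotic prophase marker level it was at 1.09 and called higher. Within libraries the log2 ratio of Mybl1 to Rfx2 was 3.62 ± 0.16 in the deletion, against -1.38 ± 0.12 in WT, and that of Mybl1 to Crem 2.47 ± 0.34 in the deletion, against -0.98 ± 0.08 in WT (SD, n = 3 each, exact two-sided permutation p = 0.1, the smallest that 3 against 3 allows, and 0.1 adjusted over 13 ratios). Its relatives were much less abundant: Mybl2, which acts in dividing cells, averaged 5.81 ± 1.28 CPM in the deletion, against 6.97 ± 0.954 CPM in WT (SD, n = 3 each) and was not called (adjusted p = 0.39, edgeR), and Myb was below the filter. Per kilobase of exon, Mybl1 made up 86.3, 83.5 and 82.5% of the MYB family in the deletion libraries, against 94.4, 94.6 and 96.0% in the WT libraries.

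The piRNA genes reported to depend on MYBL1 all fell. Of 12 such genes 12 were lower, with a median log2 fold change of -3.24, in a table in which 46.1% of genes were lower. At an equal early meiotic prophase marker level 6 of the 12 were lower and 6 higher. Of all 17038 genes, 3446 were then lower and 12601 higher. Tdrd6, a tudor-domain protein of germ granules, was at -9.61, or -10.63 without deletion replicate 1, and Piwil1, a PIWI protein of pachytene cells, was at -7.79. The smallest loss was that of Mov10l1, an RNA helicase needed to make piRNAs, with 55.5 ± 5.99 CPM in the deletion, against 153 ± 12.5 CPM in WT (SD, n = 3 each, log2 fold change -1.46).

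Of the genes of the MuvB complex, with which MYB proteins act, and of MYB relatives, 7 were tested. Of these, 5 fell, 1 was called higher and 1 was not called, where 46.1% of all genes were lower and 38.4% higher. At an equal early meiotic prophase level 1 was lower and 6 higher, where 12601 of all 17038 genes were higher. Foxm1, a cell cycle transcription factor that binds MuvB, had the largest loss at -3.53, and Lin9 and Lin54, core MuvB subunits, were at -2.12 and -1.21. Rbbp4, a histone-binding MuvB subunit that other complexes share, was at 0.20 with an adjusted p of 0.0487 (edgeR). Its call was lost when deletion replicate 1 or 3 or WT replicate 1 or 3 was left out (adjusted p = 0.0813 to 0.268), and it was at -1.82 when libraries were scaled to an equal Sertoli marker level.

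The 4 RFX genes fell to different degrees. Rfx2, and Rfx4, best known from brain and testis, had the largest losses. Rfx1 and Rfx3, which many tissues use, fell less with TMM, and at an equal early meiotic prophase level Rfx1 was not called and Rfx3 was higher. Rfx2 (ENSMUSG00000024206, chr17:56775897-56831013, minus strand) had 3.22, 3.08 and 3.05 CPM in the deletion, against 408, 425 and 420 CPM in WT. These deletion values rest on 35, 34 and 32 counts, and the groups were far apart. Rfx2 was 134-fold lower (log2 fold change -7.06, SE 0.12, adjusted p = 1.17e-15, edgeR).

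Rfx4 (ENSMUSG00000020037, chr10:84756062-84906538, plus strand) had 0 counts in each deletion library and 538, 728 and 501 counts in the WT libraries, or 83.8, 84.6 and 70.6 CPM. It was therefore at least 861-fold lower, taking 3 counts over the deletion libraries as the floor, which covers counting error only (adjusted p = 7.93e-13, edgeR). It was the only one of the 10 genes with no read in a group.

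Rfx1 (ENSMUSG00000031706, chr8:84066834-84096992, plus strand) had 9.67, 13.2 and 8.58 CPM in the deletion, against 109, 112 and 89.2 CPM in WT. Rfx3 (ENSMUSG00000040929, chr19:27761721-28011166, minus strand) had 10.8, 19.9 and 14.8 CPM in the deletion, against 51.4, 45.9 and 55.8 CPM in WT. Both stood below WT in every deletion library, and deletion replicate 2 was the highest of the 3 for both. Rfx1 was 9.85-fold lower (log2 fold change -3.30, SE 0.16) and Rfx3 3.37-fold lower (-1.75, SE 0.19), with adjusted p-values of 1.69e-11 and 3.54e-07 (edgeR). An antisense transcript, C330011M18Rik, overlaps exons of Rfx1 and had 243 counts over the 6 libraries. Because no source used here gives the strand setting of the counting, its reads cannot be told apart from those of Rfx1 with certainty, which holds also for Sox5os1 (62 counts) at Sox5.

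The make-up of the RFX family differed between the groups. Summed over Rfx1 to Rfx8, the family level was 12.5 CPM per kilobase of exon in the deletion and 131 CPM per kilobase in WT. Rfx2 was 3.42% ± 0.138 of that sum in the deletion and 43.7% ± 2.4 in WT, and Rfx4 was 0% in the deletion and 12.9% ± 0.677 in WT (SD, n = 3 each). Rfx7 was 49.9% ± 4.01 in the deletion and 2.59% ± 0.252 in WT, and Rfx5, a regulator of MHC class II genes, was 21.2% ± 0.831 in the deletion and 2.81% ± 0.0784 in WT (SD, n = 3 each). Rfx1 held 13.1% ± 2.9 of the sum in the deletion and 12.2% ± 0.869 in WT (SD, n = 3 each).

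Outside the 4 RFX members, 5 of 6 RFX family and complex genes passed the filter. Of the 5, 3 fell, 1 was higher and 1 was not called, where 46.1% of all genes were lower and 38.4% higher. The median log2 fold change of the 5 was -0.48, against -0.19 over all genes. At an equal early meiotic prophase level 1 was lower and 4 higher, with a median of 2.66, where 12601 of all 17038 genes were higher. At an equal Sertoli marker level 5 were lower and 0 higher, where 12673 of all genes were lower. Rfx8 was at -7.32, or -9.98 without deletion replicate 1 and -6.73 without deletion replicate 2. Rfx7 was at 0.88 with TMM, but at -1.14 at an equal Sertoli marker level. Rfx5, at -0.48 with TMM, was at 0.16 with no scaling factor. Rfx6, below the filter, had 0 counts in the deletion.

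Genes of cilium assembly, the classic targets of RFX factors, were mostly lower with TMM. Of 29 tested genes 26 fell and 0 rose, where 46.1% of all genes were lower and 38.4% higher. The median log2 fold change of the 29 was -2.43. At an equal early meiotic prophase level 10 were lower and 16 higher, with a median of 0.71. Over all 17038 genes, 3446 were then lower and 12601 higher, with a median of 2.95. Ift172, of the particle that carries cargo along the cilium, had the largest loss, with 34.2 ± 4.21 CPM in the deletion, against 629 ± 26.3 CPM in WT (SD, n = 3 each, log2 fold change -4.20), and Ift140 was at -4.10 and Bbs5 at -3.90. The 3 genes not called were Ift20, Ttc8 and B9d2, at 0.06, -0.33 and -0.10, and B9d2 was at -0.73 without deletion replicate 1. The 7 markers of ciliated epithelium of the rete and efferent ducts summed to 60.7 to 73.0 CPM in the deletion, against 1087 to 1143 CPM in WT. Of the 4 that were tested, Foxj1, Tubb4b and Ccdc113 were lower, at -6.20, -2.84 and -8.21, and Ccno, at 0.29, was not called. Foxj1 is also counted below among regulators of meiotic and spermatid transcription, so the sum is not specific to duct epithelium. The other 3, Mcidas, Pax8 and Sntn, had 0 counts in the WT libraries, and Pax8 had 35, 0 and 29 counts in the deletion libraries. Their part in the lower cilium genes was not tested.

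**Figure D2:**
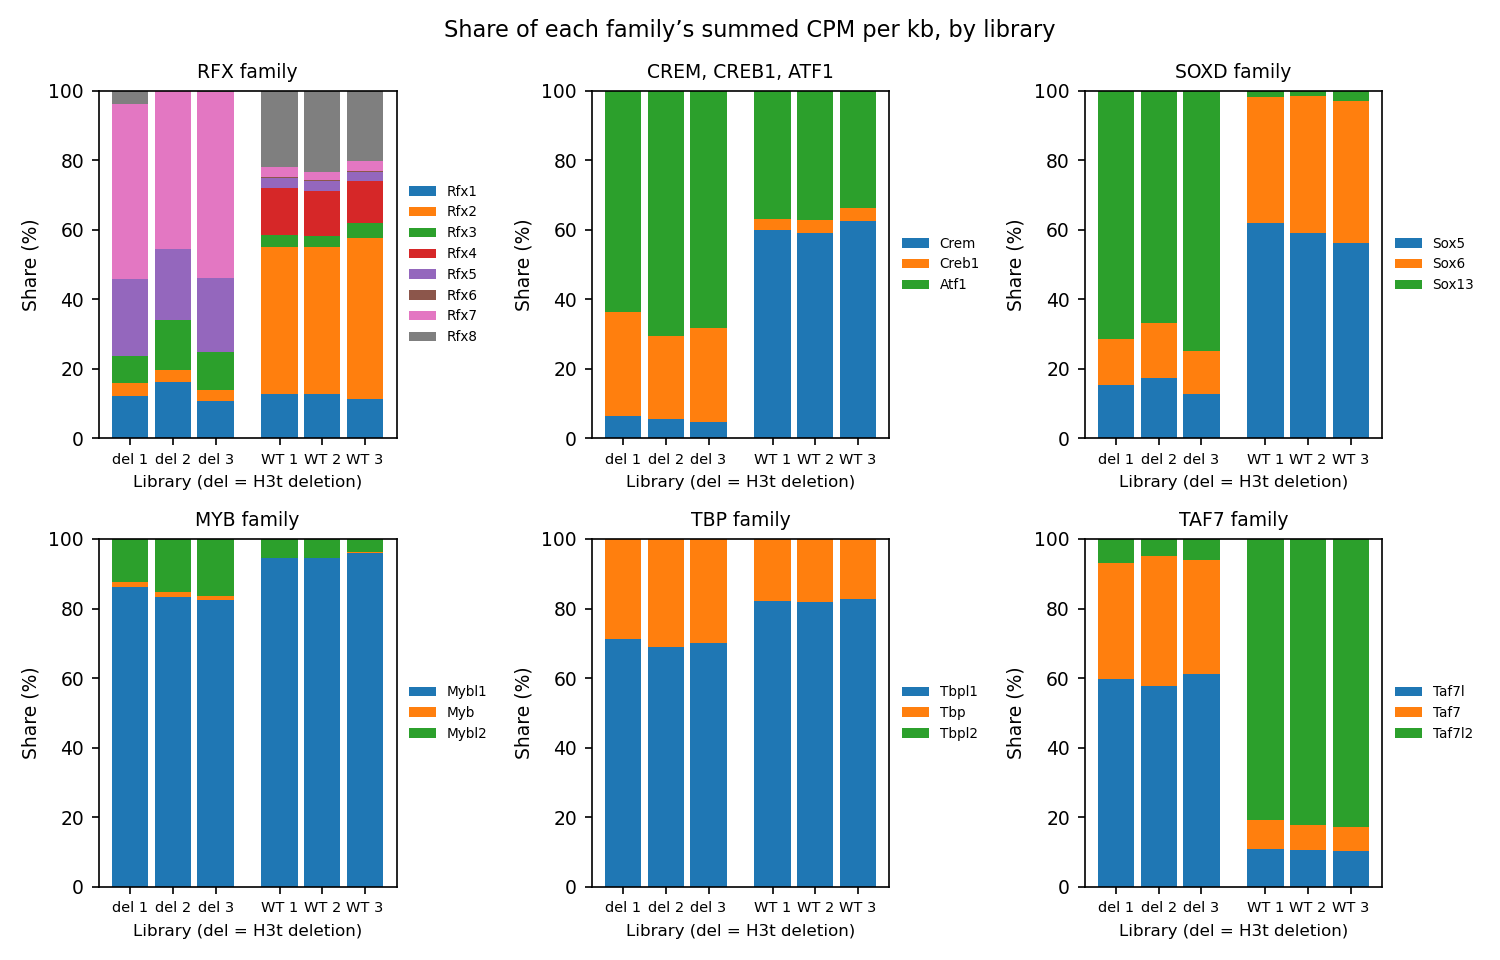
Share in percent of each family's summed CPM per kilobase of exon for the RFX, CREM, SOXD, MYB, TBP and TAF7 families in 3 H3t deletion libraries (del, left) and 3 WT libraries (right). Rfx2 makes up 3.42% of the RFX family in the deletion and 43.7% in WT, and Taf7l2 5.96% of the TAF7 family in the deletion and 81.9% in WT.

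Crem, the cAMP response element modulator, was 45.3-fold lower. Crem (ENSMUSG00000063889, chr18:3266048-3337748, minus strand) had 8.01, 7.42 and 5.53 CPM in the deletion, against 321, 305 and 323 CPM in WT. The groups were widely separated (log2 fold change -5.50, SE 0.13, adjusted p = 4.36e-15, edgeR). The gene has 39 annotated transcripts, some of which encode activators and some repressors, and a count per gene does not separate them. Per kilobase of exon, Crem made up 5.6% ± 0.843 of the sum of Crem, Creb1 and Atf1 in the deletion and 60.5% ± 1.76 in WT (SD, n = 3 each). Within libraries the log2 ratio of Crem to Creb1, its widely expressed relative, was -3.49 ± 0.22 in the deletion and 2.89 ± 0.09 in WT (SD, n = 3 each, exact two-sided permutation p = 0.1, adjusted p = 0.1 over 13 ratios).

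Partners and relatives of CREM were called in both directions. Of 13 family and coactivator genes 5 fell and 8 were higher with TMM, where 46.1% of all genes were lower and 38.4% higher. The median of the 13 was 0.59. Fhl5 (ACT), the testis coactivator of CREM, was at 0.151 ± 0.188 CPM in the deletion, against 57.9 ± 7.11 CPM in WT (SD, n = 3 each), a log2 fold change of -8.43, or -9.87 without deletion replicate 2. Kif17, the kinesin that controls where ACT sits in the cell, was at -7.72, and Creb3l4, a spermatid factor of the CREB3 family, at -7.78, or -8.38 without deletion replicate 1. Camk4, a calcium-dependent kinase whose gene also encodes the testis protein calspermin, was at -4.80 and Atf1 at -1.17.

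The 8 higher genes were Creb1, Crtc1, Crtc2, Crtc3, Crebbp, Ep300, Fhl1 and Fhl2, of which Crtc1 to Crtc3 encode coactivators of CREB and Crebbp and Ep300 histone acetyltransferases. Fhl1 had the largest gain, with 34.0 ± 5.54 CPM in the deletion, against 7.1 ± 0.57 CPM in WT (SD, n = 3 each, log2 fold change 2.26). With an equal Sertoli marker level 0 of these 13 genes were called higher and 10 lower, where 12673 of all 17038 genes were lower. Creb1, at 0.87 with TMM, was then at -1.15.

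Genes that are lost in Crem-deficient testis were lower here as well. With TMM all 10 of the list fell, with a median log2 fold change of -9.24, where 46.1% of all genes were lower. At an equal early meiotic prophase level 9 fell and Ace was higher, where 3446 of all 17038 genes were lower. Prm1, a protamine, was at -9.78, or -11.38 without deletion replicate 1, and Odf1, of the outer dense fibres of the sperm tail, at -9.08. Ace, which somatic cells express from another promoter, had the smallest loss at -2.79, with 80.9 ± 10.5 CPM in the deletion, against 559 ± 4.41 CPM in WT (SD, n = 3 each).

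Sox30 and Sox5, which carry the HMG-box DNA-binding domain of SOX proteins, both fell. Sox30 (ENSMUSG00000040489, chr11:45980310-46017994, plus strand) had 5.07, 2.89 and 3.53 CPM in the deletion, against 335, 306 and 291 CPM in WT. It was 81.1-fold lower (log2 fold change -6.34, SE 0.15, adjusted p = 6.02e-15, edgeR). Sox5 (ENSMUSG00000041540, chr6:143828425-144781977, minus strand) had 17.8, 23.0 and 17.2 CPM in the deletion, against 376, 309 and 279 CPM in WT. It was 16.6-fold lower (log2 fold change -4.05, SE 0.14, adjusted p = 3.38e-13, edgeR), and WT replicate 1 was its highest library. The log2 ratio of Sox30 to Sox5 within a library was -2.36 ± 0.59 in the deletion and -0.04 ± 0.12 in WT (SD, n = 3 each, exact two-sided permutation p = 0.1, adjusted p = 0.1 over 13 ratios).

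The SOXD group, of Sox5, Sox6 and Sox13, had another leading member in the deletion. Sox13 made up 71.0% ± 3.96 of the group's summed level per kilobase in the deletion and 2.17% ± 0.667 in WT, and Sox5 15.2% ± 2.34 in the deletion and 59.0% ± 2.82 in WT (SD, n = 3 each). Of 9 other SOX genes tested, 6 were higher, 2 fell and 1 was not called. Over all genes, 38.4% were higher and 46.1% lower. The median of the 9 was 1.92, and -0.09 at an equal Sertoli marker level. Sox13 had the largest gain at 2.97. Sox9, the Sertoli cell determinant, was at 2.56 and is itself among the Sertoli markers used for that scaling. Sox9 and Sox13 were the only genes of all partner, family and target lists that were called higher at an equal Sertoli marker level. Sox6 had the largest loss at -3.58, with 18.1 ± 2.93 CPM in the deletion, against 216 ± 10.1 CPM in WT (SD, n = 3 each).

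The 4 genes reported as SOX30 targets were all lower, where 46.1% of all genes were lower. Of the 4, Tnp1 is also in the Crem list. Ccdc54 was at -10.11, Tsks, a substrate of the testis-specific serine kinases, at -9.56, Tnp1, a transition protein, at -9.40 and Hils1, a spermatid linker histone, at -8.52. Without deletion replicate 1 these values were -13.24, -11.52, -10.47 and -13.01, and without deletion replicate 2 Hils1 was at -7.93.

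Tbpl1 and Taf7l, both parts or relatives of the general transcription machinery, differed. Tbpl1 (TRF2, a TBP relative needed for spermiogenesis; ENSMUSG00000071359, chr10:22703879-22731938, minus strand) had 16.0, 15.5 and 17.2 CPM in the deletion, against 249, 272 and 273 CPM in WT. It was 16.3-fold lower (log2 fold change -4.03, SE 0.10, adjusted p = 1.1e-14, edgeR), with no overlap of the groups. An exon of Slc2a12 on the other strand overlaps Tbpl1, and Slc2a12 had 308 counts over the 6 libraries.

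Taf7l (X-linked, a paralog of the TFIID subunit TAF7; ENSMUSG00000009596, chrX:134460118-134476490, minus strand) had 69.5, 69.5 and 67.9 CPM in the deletion, against 59.0, 60.3 and 65.0 CPM in WT. Every deletion library lay above every WT library, but the difference did not pass (log2 fold change 0.17, 95% interval -0.04 to 0.38, adjusted p = 0.125, edgeR). With no scaling factor Taf7l was at 0.81 and with upper-quartile scaling at 0.71, both called higher (adjusted p = 1.08e-06 and 5.12e-06), with median-of-ratios scaling it was at -0.0037 and not called, and at an equal Sertoli marker level it was at -1.85 and called lower (adjusted p = 3.32e-10). The log2 ratio of Taf7l to Tbpl1 within a library, which needs no scaling, was 2.09 ± 0.10 in the deletion and -2.11 ± 0.06 in WT (SD, n = 3 each, exact two-sided permutation p = 0.1, adjusted p = 0.1 over 13 ratios).

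The paralogs of both genes were uneven as well. Taf7l2, a relative of Taf7l, had 6.92 ± 1.03 CPM in the deletion, against 479 ± 48.3 CPM in WT, whereas Taf7 had 58.9 ± 6.49 CPM in the deletion, against 64.5 ± 2.9 CPM in WT (SD, n = 3 each). Taf7 was not called with TMM (-0.13, adjusted p = 0.281, edgeR). It was called higher with no scaling factor (0.51) and with upper-quartile scaling (0.41). With median-of-ratios scaling (-0.30) and at an equal Sertoli marker level (-2.15) it was called lower. Taf7l2 fell by 6.11 on the log2 scale with TMM. Taf7l2 thus made up 5.96% ± 0.966 of the summed level per kilobase of Taf7, Taf7l and Taf7l2 in the deletion and 81.9% ± 1.02 in WT, and Taf7l 59.5% ± 1.72 in the deletion and 10.6% ± 0.406 in WT (SD, n = 3 each). None of the 50-base stretches of Taf7l transcripts occurs in transcripts of another gene. Tbp itself fell, to 28.7 ± 1.77 CPM in the deletion, against 236 ± 11.6 CPM in WT (SD, n = 3 each), and the log2 ratio of Tbpl1 to Tbp was -0.82 ± 0.08 in the deletion and 0.17 ± 0.04 in WT (exact two-sided permutation p = 0.1, adjusted p = 0.1 over 13 ratios).

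Of 23 other tested TFIID and TFIIA genes 15 fell, 3 were higher and 5 were not called, with a median of -1.23. Over all genes, 46.1% were lower and 38.4% higher. Of the 3 higher, Taf8 lost its call without WT replicate 1 or 2 and Taf4 without WT replicate 3 (adjusted p = 0.0551 to 0.0962, edgeR). At a false discovery rate of 0.01 only 1 was higher. At an equal early meiotic prophase level 2 of the 23 were lower and 20 higher, where 12601 of all 17038 genes were higher. Gtf2a1l (ALF), the germ cell form of a TFIIA subunit, had the largest loss: 1 count over the deletion libraries and 5624 over the WT libraries, a ratio of 8239 in favour of WT after scaling with an exact 95% counting interval of 1478 to 325500. Its general form Gtf2a1 was at -0.31, and at 0.33 with no scaling factor. Taf1, the largest TFIID subunit, had the largest gain, with 179 ± 4.06 CPM in the deletion, against 43.9 ± 9.22 CPM in WT (SD, n = 3 each), a log2 fold change of 2.03 that was 0.01 and not called at an equal Sertoli marker level. Taf4b, a germ cell TAF, was at 0.24 and not called (adjusted p = 0.0673, edgeR).

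The order of the 10 genes by level differed between the groups. Per kilobase of merged exons, the highest in the deletion was Taf7l at 30.7 ± 0.429 CPM per kilobase, followed by Mybl1 at 7.09 ± 0.619 and Tbpl1 at 4.96 ± 0.264 (SD, n = 3 each). Rfx1, Rfx3, Sox5, Sox30 and Crem followed at 1.63 to 1.19 CPM per kilobase, each with a range that overlapped that of its neighbour in the order, and Rfx2 was at 0.426 ± 0.0128 and Rfx4 at 0. In WT the order was Sox30 at 104 ± 7.42 CPM per kilobase, Tbpl1 at 81.0 ± 4.14, Rfx2 at 57.1 ± 1.18, Crem at 53.7 ± 1.7, Mybl1 at 29.8 ± 2.33, Taf7l at 27.4 ± 1.4, Sox5 at 22.4 ± 3.46, Rfx4 at 16.9 ± 1.66, Rfx1 at 16.1 ± 1.91 and Rfx3 at 4.63 ± 0.449 (SD, n = 3 each). In WT the ranges of Mybl1 and Taf7l overlapped, as did those of Rfx4 and Rfx1. Taf7l, sixth in WT, was first in the deletion.

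Other regulators of meiotic and spermatid transcription fell in the main. Of 21 such genes 15 were lower, 3 higher and 3 not called, with a median of -5.23. Over all tested genes, 46.1% were lower and 38.4% higher. Brdt, the testis bromodomain protein, was at -4.68. Tcfl5, a helix-loop-helix factor of spermatocytes, had 14.6 ± 3.99 CPM in the deletion, against 483 ± 1.68 CPM in WT (SD, n = 3 each). Zfp541 and Kctd19, which act together in pachytene cells, were at -5.99 and -6.97. Tcp11x2, which is not known as a transcription factor, had the largest loss of the list, with 1 count in the deletion libraries and 1064 in WT, a ratio of 1559 in favour of WT after scaling with an exact 95% counting interval of 279 to 61630. The genes not called were Prdm9, Gm4969 (Meiosin) and Ctcfl, of which Prdm9 marks recombination sites and Meiosin acts with STRA8 at the entry into meiosis. These 3 were called higher with upper-quartile scaling and with no scaling factor. At an equal Sertoli marker level they were called lower, at -1.87, -2.03 and -1.68. Prdm9 had 11.5 ± 0.949 CPM in the deletion, against 10.5 ± 2.17 CPM in WT, and Gm4969 had 10.8 ± 1.65 CPM in the deletion, against 10.9 ± 1.48 CPM in WT (SD, n = 3 each). Patz1, a zinc finger protein, had the largest gain at 2.18, or 0.18 and not called at an equal Sertoli marker level, and Stra8, at 1.58 with TMM, was at -0.43 at an equal Sertoli marker level.

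**Figure D3:**
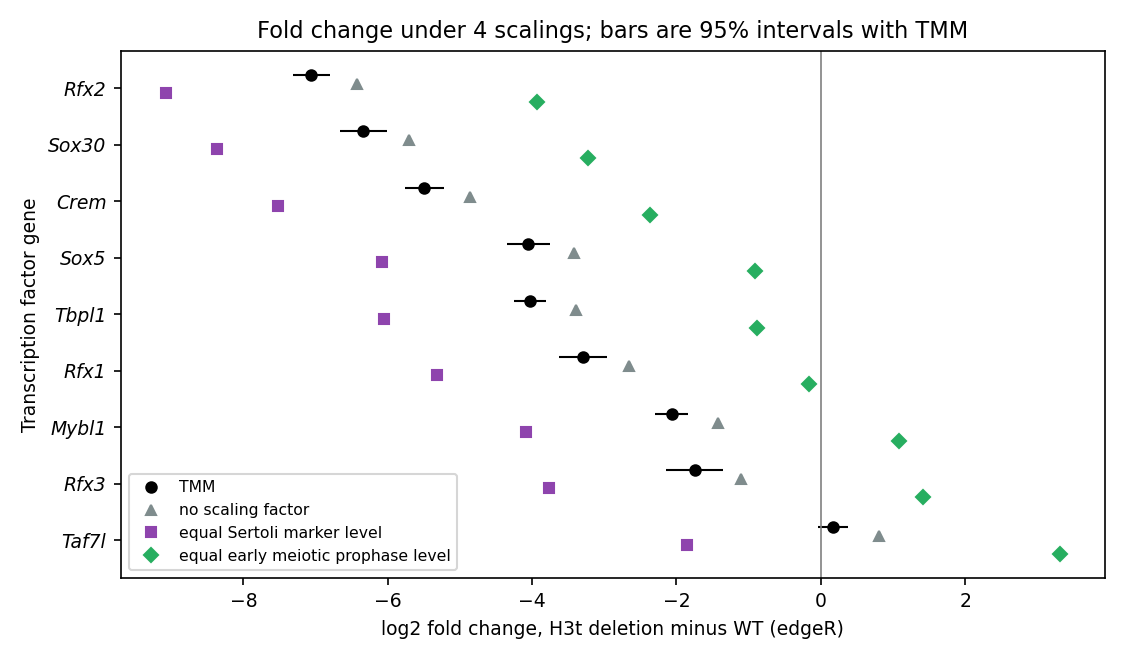
Log2 fold change, deletion minus WT, of 9 transcription factor genes from edgeR under TMM, no scaling factor, an equal Sertoli marker level and an equal early meiotic prophase marker level; bars are 95% intervals with TMM, and Rfx4, at 0 counts in the deletion, is not drawn. With TMM the values run from -7.06 for Rfx2 to 0.17 for Taf7l, and at an equal early meiotic prophase level from -3.93 to 3.32.

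The genes were next set against markers of germ cell stages within each library. The scaling factor of a library then cancels, except through the prior count of 2 added before taking logs. For each gene with reads in both groups, the mean log2 CPM of a marker list was subtracted from the gene's log2 CPM in the same library, which gave 45 differences between the groups for 9 genes and 5 lists. The smallest p that 3 against 3 libraries allow is 0.1, so none could pass 0.05. Of the marker lists themselves, undifferentiated spermatogonia moved by 0.79, differentiating spermatogonia by 0.15, early meiotic prophase by -2.93, pachytene and later spermatocytes by -7.44 and round spermatids by -8.19 in mean log2 CPM, deletion minus WT. The 9 markers of differentiating spermatogonia went both ways, with 2 lower, 4 higher and 3 not called, and their summed CPM was lower in the deletion while their mean log2 CPM was higher. In the later 2 lists many markers were near 0 counts in the deletion, where the prior count of 2 sets the floor.

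Against early meiotic prophase markers the 9 genes lay on both sides of 0. Rfx2, Sox30 and Crem were lower by 4.04, 3.37 and 2.55 on the log2 scale relative to these markers, and Sox5 and Tbpl1 by 1.12 and 1.08. Mybl1 was higher by 0.86 relative to the markers, at 1.62 ± 0.30 in the deletion and 0.76 ± 0.01 in WT, Rfx3 by 1.15, at 0.26 ± 0.61 in the deletion and -0.89 ± 0.03 in WT, and Taf7l by 3.09, at 2.47 ± 0.18 in the deletion and -0.62 ± 0.07 in WT (SD, n = 3 each). Each of these 8 had an exact two-sided permutation p of 0.1, and 0.105 adjusted over the 45 differences. Rfx1 differed by -0.36, with overlapping groups (exact permutation p = 0.3, adjusted p = 0.307).

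When libraries were scaled to an equal early meiotic prophase level and all genes were refitted, 6 of the 10 genes were called lower and 3 higher. The 3 higher were Taf7l at 3.32, Rfx3 at 1.42 and Mybl1 at 1.09, and Rfx1, at -0.16, was not called (adjusted p = 0.474, edgeR). Rfx3 and Mybl1 were then below the median of all genes, 2.95, and Taf7l above it. Of all 17038 genes, 3446 were called lower and 12601 higher.

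Taf7l differed least when set against the differentiating spermatogonia. Its log2 CPM minus that of their 9 markers was 2.07 ± 0.04 in the deletion and 2.05 ± 0.04 in WT (SD, n = 3 each), a difference of 0.01 (exact two-sided permutation p = 0.7, adjusted p = 0.7). Against the median of these markers in place of their mean the difference was 0.34. Against the undifferentiated spermatogonia markers Taf7l was lower by 0.62, at 3.97 ± 0.16 in the deletion and 4.59 ± 0.23 in WT (SD, n = 3 each), with no overlap of the groups (exact two-sided permutation p = 0.1, adjusted p = 0.105). Relative to the differentiating spermatogonia markers the other 8 genes were lower, from -1.93 for Rfx3 to -7.12 for Rfx2 (exact two-sided permutation p = 0.1 each, adjusted p = 0.105). Against the pachytene markers the 9 genes were higher, by 0.47 for Rfx2 to 7.61 for Taf7l (exact two-sided permutation p = 0.1 each, adjusted p = 0.105).

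**Figure D4:**
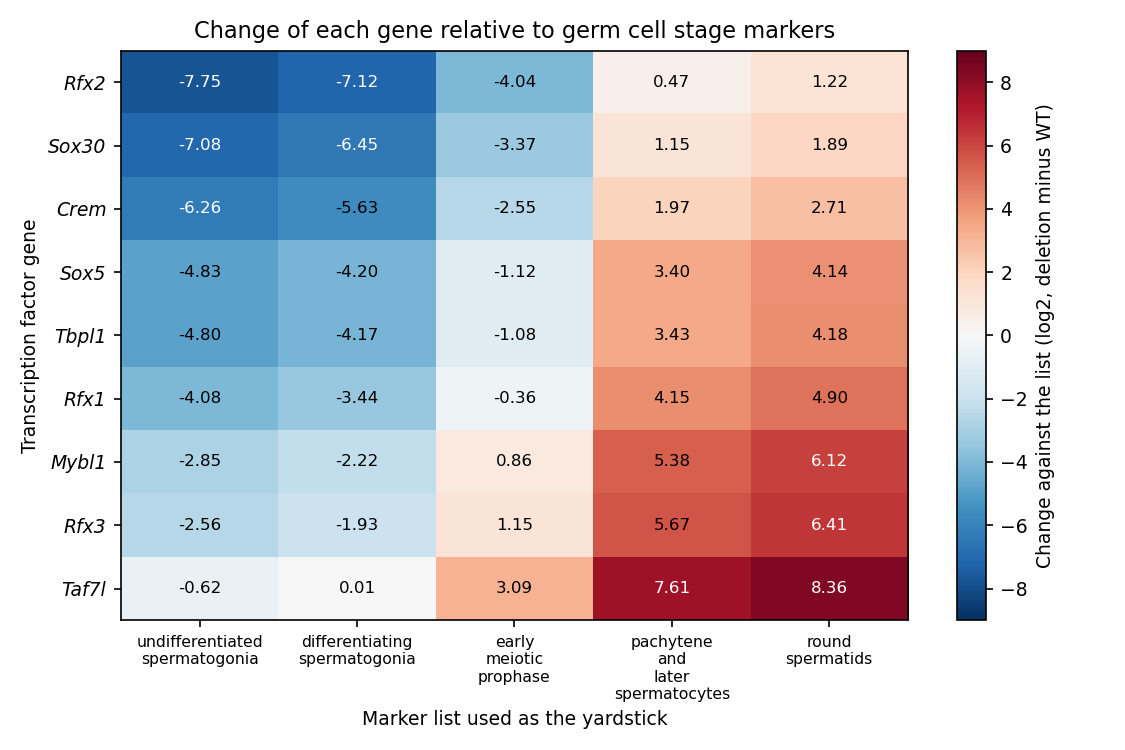
Change of 9 transcription factor genes (rows) relative to the mean log2 CPM of 5 germ cell marker lists (columns), as log2 values, deletion minus WT, with blue for lower and red for higher. Against early meiotic prophase markers the values run from -4.04 for Rfx2 to 3.09 for Taf7l, and Taf7l is at 0.01 against differentiating spermatogonia.

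The genes with the most similar pattern were sought among 13725 protein-coding genes by the root mean square difference of centred log2 CPM over the 6 libraries. The nearest to Mybl1 were Kif18a, a mitotic and meiotic kinesin, and Mrto4, at 0.05 and 0.06. The nearest to Tbpl1 were Ift81 and Psmf1, both at 0.06, and those to Taf7l were Zfp207 and Clcn3, both at 0.03. Crem was nearest to Igf2bp3 and Knstrn, at 0.03 and 0.07, Rfx1 to Ptdss2 and Sec1, at 0.08 and 0.11, Rfx3 to Cep76 and Tatdn3, at 0.11 and 0.12, and Sox5 to Efhc2 and Nupr1l, at 0.10 and 0.11. Sox30 was nearest to Ttll9 and Tmem269, at 0.08 and 0.10, whose fitted log2 fold changes were -6.42 and -8.85. Rfx2 was nearest to Prss45 and Arl13a, at 0.04 and 0.06, and Rfx4 to Tbc1d21 and Rnf151, both at 0.07. These last 4 neighbours averaged 0 CPM in the deletion, as did Rfx4, and Tmem269 averaged 0.0307 CPM, so their likeness rests on the prior count of 2.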

How the data were processed

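The values are raw counts per Ensembl gene that the authors deposited, made with Trim Galore, HISAT2 and featureCounts on GRCm38, per the submitters' processing notes. The SMART-Seq Stranded kit was used, per the labels' protocols. The sources used here do not give the strand setting of the counting, the versions or the annotation release. The 54100 gene IDs all lie in GENCODE M21 (GRCm38) on the same chromosomes, and positions and exon lengths come from there. Upstream sequences are RefSeq's on GRCm38.p6.

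The tests used edgeR 4.0.16 under R 4.3.3. Low counts were removed by filterByExpr, libraries were scaled by TMM (factors 1.21 to 1.27 in the deletion and 0.794 to 0.806 in WT), and the deletion compared with WT by the quasi-likelihood test at a false discovery rate of 0.05, with Benjamini-Hochberg adjustment over 17038 genes. Standard errors are the log2 fold change divided by the square root of the F statistic. One count was worth 0.0904 to 0.0953 CPM in the deletion and 0.116 to 0.156 CPM in WT. No libraries of a group agreed within sampling noise (chi-square divided by its degrees of freedom 4.48 to 6.88). The steps were tested on simulated counts in which few genes changed, in both directions. That setting does not cover a change of most genes, as called here, or the choice of scaling.

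The members and lists were chosen with earlier results of these data known. Besides the 10 members, the text names from each list the called genes with the largest gain and loss at a mean of at least 5 CPM, and family and partner genes of at least 10 CPM in either group. Other list genes, such as Ace, Hils1, Mov10l1 and Ttc8, the ratios between 2 genes and the motifs were chosen after values were seen.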

Additional observations from a re-analysis of the deposited data

How the results depend on the processing

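Of the 10 genes, 9 were called lower under DESeq2 1.42.0, limma 3.58.1 voom, a stricter false discovery rate (0.01), edgeR's test for changes beyond 1.5-fold, no filter, a strict filter, and median-of-ratios, upper-quartile or no scaling. Leaving out 1 library at a time gave 9 lower and 0 higher each time. At an equal Sertoli marker level 10 were lower, and at an equal early meiotic prophase level 6 were lower and 3 higher. Upper-quartile scaling and no scaling each gave 1 higher, Taf7l. An equal level of differentiating spermatogonia markers, chosen after seeing the data, gave 9 lower and 0 higher.

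Taf7l was at -0.0037 with median-of-ratios scaling and with DESeq2 and at -1.85 at the Sertoli level. Rfx3 and Mybl1 were at 1.42 and 1.09 at the early meiotic prophase level. Taf7l relative to differentiating spermatogonia, 0.01, ranged from -0.0072 (without WT replicate 1) to 0.0367 (without WT replicate 3) when 1 library was left out, and was -0.0032 without deletion replicate 2. The cause was not tested.

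Over the partner, family and target lists, 95 genes were lower and 22 higher. Leaving out a library gave 93 to 97 lower and 20 to 22 higher. At the Sertoli level 2 were higher, and at the early meiotic prophase level 51 were lower and 75 higher. Over all genes, 46.1% were lower and 38.4% higher with TMM, 74.4% and 5.75% at the Sertoli level, and 20.2% and 74% at the early meiotic prophase level. Without a filter, which adds low genes to those tested, 22.7% were higher. The median of all genes was -2.20 and 2.95 with the last 2 scalings, 0.45 without scaling and 0.35 with the upper quartile. With longest transcripts in place of merged exons, Taf7l stayed first and Rfx4 last in the deletion, and Crem was first in WT.

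No paired analysis was possible because the labels give no pairing of deletion with WT libraries. The replicate numbers were given here within each group, in the order of the samples, and carry no pairing. Depth limits the deletion values of Rfx2, Sox30 and Crem, which rest on 32 to 87 counts per library.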
